A study of Mus musculus with 2 samples.

Results

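Cytochrome P450 genes were examined in submandibular gland epithelial cells of young and aged mice. Members were all mouse genes whose name on the array is Cyp followed by a family number, a subfamily letter and a gene number. This rule found 101 genes on 135 probes, out of 37003 genes on 56597 probes. The 101 names fall into 16 families. They include 4 pseudogenes and Cyp4x1os, an antisense noncoding gene that carries a P450 name without encoding a P450 enzyme.

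The young sample came from female C57BL/6 mice at 9 weeks of age and the aged sample from female C57BL/6 mice at 24 months (C57BL/6N in the study's methods), and the labels name no transgene or treatment for either. Cells that carry the epithelial surface protein EpCAM were collected from the digested gland with magnetic beads. Each age had 1 single-colour array of 60-base probes, and both arrays lay on the same slide. The study's methods give a commercial breeder as the source of young mice and the institute's own facility as the source of aged mice, so age and source cannot be told apart. The number of mice behind each array is not given in the sources used here.

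Cytochrome P450 enzymes are heme proteins, most of which insert an oxygen atom into their substrates, using electrons that a reductase passes on from NADPH. Families with low numbers mostly oxidise drugs, plant compounds and fatty acids, are highest in the liver, and many of their genes are induced by nuclear receptors that sense foreign compounds. Families with high numbers mostly act on endogenous lipids: they make and degrade steroid hormones, bile acids, vitamin D and retinoic acid.

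The P450 genes with the largest differences between ages lie in 1 cluster on chromosome 7, and their sequences are shown first because near-identical copies limit how far single probes can be read. The bases before the transcription start are given in RefSeq annotation of GRCm38.p6, all on the plus strand. Capitals mark TATAAA, the TATA box letters, and TTGCATAA, a run of letters noticed by eye in these promoters and not chosen beforehand. The windows are chr7:26307072-26307191 for Cyp2a4, chr7:26835219-26835338 for Cyp2a5, chr7:26173289-26173408 for Cyp2b9, chr7:25897538-25897657 for Cyp2b10 and chr7:26757022-26757141 for Cyp2b19. Each holds the 120 bases that end just before the annotated start.
Cyp2a4: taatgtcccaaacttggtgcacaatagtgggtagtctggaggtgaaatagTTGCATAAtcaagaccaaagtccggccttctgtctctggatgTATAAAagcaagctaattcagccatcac
Cyp2a5: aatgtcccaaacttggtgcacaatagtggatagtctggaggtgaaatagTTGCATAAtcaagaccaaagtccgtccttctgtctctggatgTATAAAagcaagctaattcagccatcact
Cyp2b9: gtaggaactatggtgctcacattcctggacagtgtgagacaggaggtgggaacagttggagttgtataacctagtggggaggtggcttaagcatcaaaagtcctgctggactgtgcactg
Cyp2b10: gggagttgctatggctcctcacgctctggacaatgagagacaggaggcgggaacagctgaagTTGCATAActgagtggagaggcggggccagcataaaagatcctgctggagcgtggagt
Cyp2b19: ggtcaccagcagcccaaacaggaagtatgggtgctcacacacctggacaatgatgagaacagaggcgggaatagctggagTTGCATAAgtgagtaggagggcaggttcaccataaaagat

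The Cyp2a4 and Cyp2a5 promoters were near-identical, with 97.6% identical columns when the 250 bases before each start were aligned. The Cyp2b9 and Cyp2b10 promoters shared 71.0% and the Cyp2a4 and Cyp2b10 promoters 49.3%. TATAAA began 28 bases before the start of Cyp2a4 and 29 bases before that of Cyp2a5. Of the 74 P450 genes found in the promoter table, 27 held TATAAA on either strand within 250 bases before a start, and 14.3% of all 27025 genes in the table did. TTGCATAA was held by 6 of the 74 genes, namely Cyp2a4, Cyp2a5, Cyp2b10, Cyp2b19, Cyp2b23 and Cyp4f14, and by 0.829% of all genes. The 5 letters GCGTG, the core of the element that binds the aryl hydrocarbon receptor, were held by 14 of 74 P450 genes and 30.9% of all genes. AGGTCA, a binding motif of nuclear receptors, was held by 18 of 74 genes and by 15.8% of all genes. Both strands were searched for every motif, and a match describes letters only. Neither Cyp2a12 nor Cyp2a22, which hold TATAAA, nor Cyp2b23, which holds TTGCATAA, was detected on the arrays.

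The probes themselves also limit how the copies can be told apart. The first 30 bases of each 60-base probe of the chromosome 7 genes are shown, and the whole probe of Cyp2d12, the gene elsewhere in the genome that passed 2-fold. Coordinates are those of the array files, in mm9: chr7:27099880-27099939 for Cyp2a4, chr7:27628169-27628228 for Cyp2a5, chr7:26995607-26995666 for Cyp2b9, chr7:26711522-26711581 for Cyp2b10, chr7:27557545-27557604 for Cyp2b19 and chr15:82388259-82388501 for Cyp2d12. All are on the plus strand, and the last interval is longer than its probe.
Cyp2a4: actatgagtttcttgtcccgttgatcctgg
Cyp2a5: aggacacagagtagacttgcagaggatatt
Cyp2b9: taaggtctgatttctatgtctacagacttg
Cyp2b10: cacttatcagctctccatgatctgggatct
Cyp2b19: tgttgagacaggatctcactatgtagacct
Cyp2d12: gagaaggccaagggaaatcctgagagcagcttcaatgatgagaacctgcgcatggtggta

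The array files list the Cyp2a4 probe with transcripts of both Cyp2a4 and Cyp2a5, and the Cyp2b9 probe with transcripts of both Cyp2b9 and Cyp2b10. The probes of Cyp2a5, Cyp2b10, Cyp2b19 and Cyp2d12 were each listed with their own gene only. Of all 135 probes, 17 were listed with more than 1 gene. Values of Cyp2a4 and Cyp2b9 may therefore include signal from their neighbours.

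Of the 101 P450 genes, 48 had a probe that the scanner software called well above background on at least 1 array, a share of 47.5%. Among all genes on the array this share was 57.7%. Both arrays detected 39 of the genes, the aged array alone detected 4 and the young array alone 5. The other 53 stayed near background on both. A level below is the processed signal in scanner units with the software's own error, and a difference is the log2 level of the aged array minus that of the young array after each signal was divided by the 75th percentile of its array. With 1 array per age there is no replicate spread and no test, and 2-fold is used as a fixed size. The software's errors give a standard deviation of 0.20 to 0.36 on the log2 difference of a P450 gene. The SD between the spots of probes printed 10 times was 0.03 for the difference at the median. Both cover the measurement only and not the spread between mice.

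**Figure D1:**
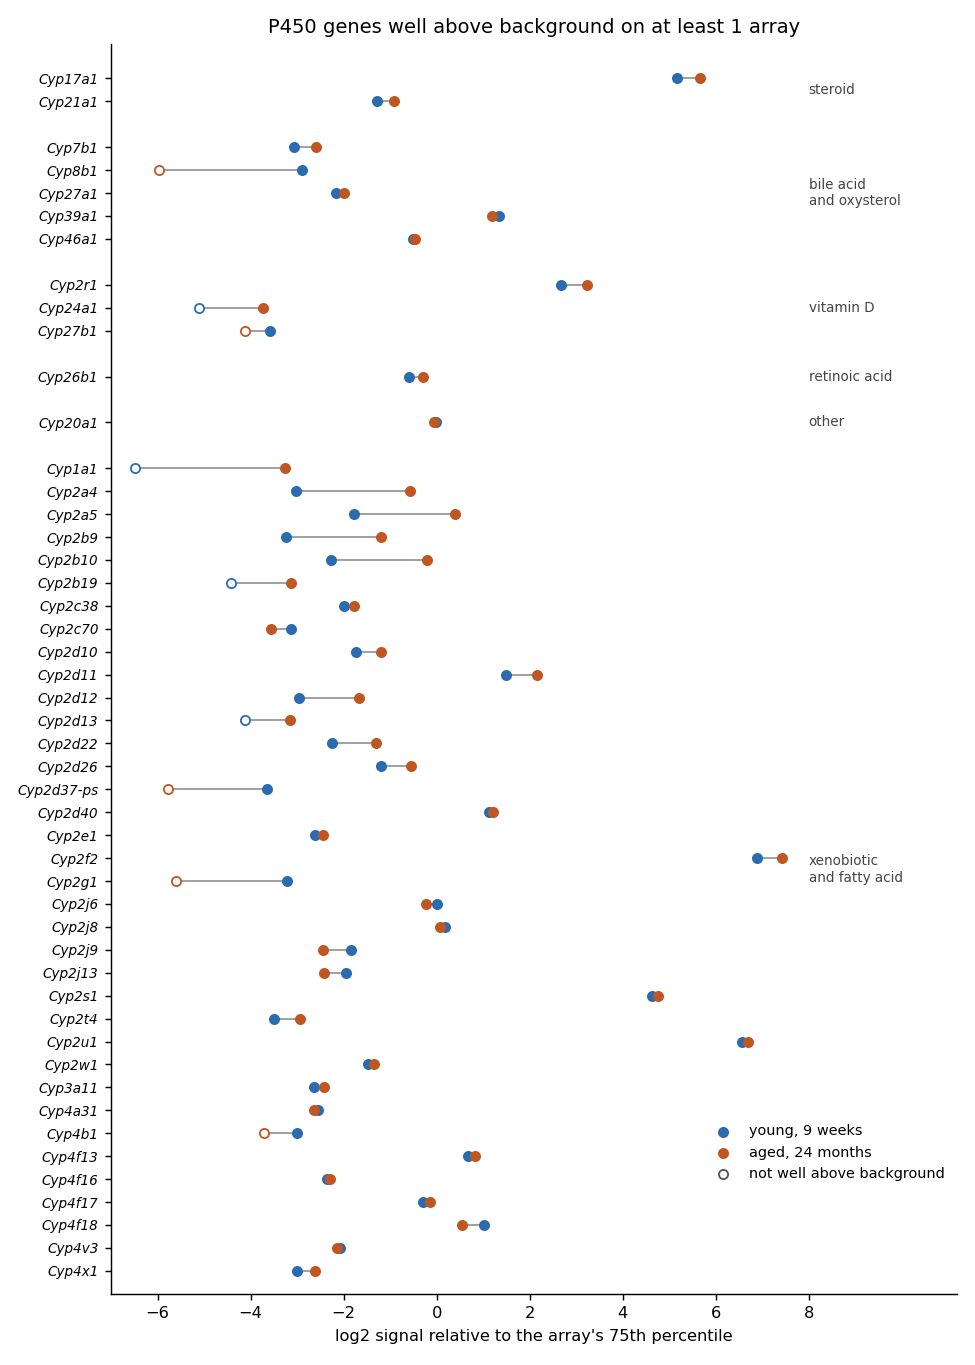
Log2 signal of the 48 P450 genes detected on at least 1 array, relative to the 75th percentile of each array, grouped by the role of the enzyme, with 1 array per age. Blue points are the young array, orange points the aged array and open points are not well above background. Points of 1 gene can be compared, but points of different genes come from different probes and cannot. The long orange shifts to the right with both points filled are Cyp2a4, Cyp2a5, Cyp2b9, Cyp2b10 and Cyp2d12.

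Among the 39 genes measured on both arrays, 5 were 2-fold or more higher in aged cells and 0 were 2-fold or more lower. That is 12.8% higher, beside 1.52% of the 18745 genes measured on both arrays. Of all these genes 3.05% were 2-fold lower. The 5 genes were Cyp2a4, Cyp2a5, Cyp2b9, Cyp2b10 and Cyp2d12, of which 2 pairs share a probe match as described. The median difference of the 39 genes was 0.18 and that of all genes was 0.09. A difference above 0 was seen in 29 of 39 P450 genes, a share of 74.4%, and in 59.9% of all genes. In bulk RNA, fewer cells of a type and less RNA per cell cannot be told apart.

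**Figure D2:**
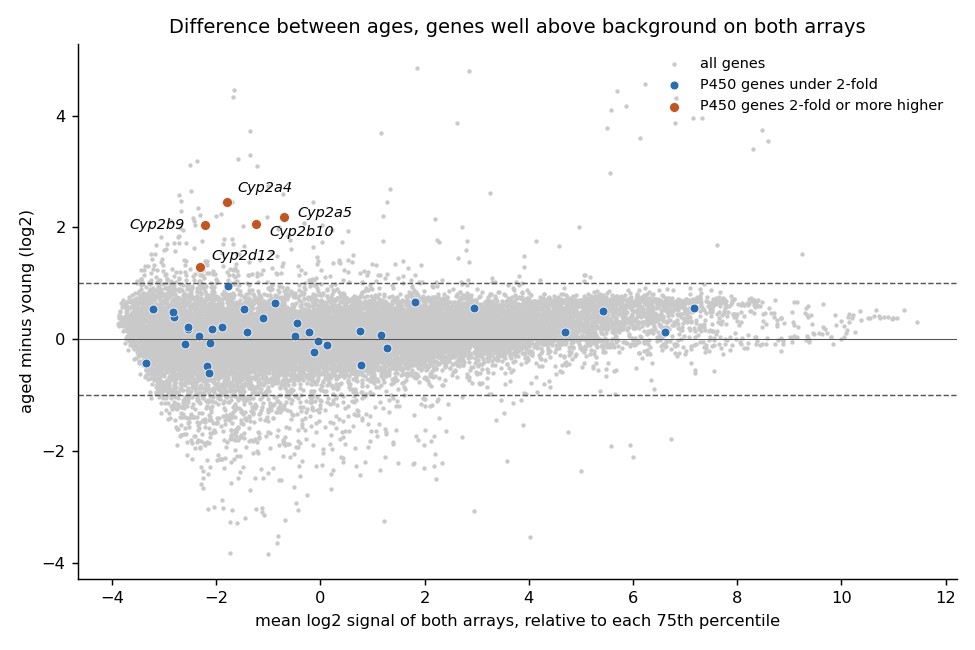
Log2 difference, aged minus young, against the mean log2 signal of both arrays for 18745 genes measured on both (grey) and the 39 P450 genes among them (blue under 2-fold, orange 2-fold or more higher). Dashed lines mark 2-fold. The 5 orange genes lie between 1.29 and 2.45, and no blue gene lies beyond either line.

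The Cyp2a genes gave the largest differences. Cyp2a5 is the coumarin hydroxylase of mouse liver and also acts on nicotine. Its signal rose from 74.5 ± 8.0 in young cells to 260 ± 26 in aged cells, a difference of 2.18, or 4.53-fold. Cyp2a4, a testosterone hydroxylase that differs from Cyp2a5 by few residues, had 31.6 ± 4.4 and 133 ± 14, a difference of 2.45, or 5.45-fold. The aged value was higher on both probes by far more than the software's error of 0.21 and 0.25. The other Cyp2a genes, Cyp2a12 and Cyp2a22, read between 2.84 and 3.27 on both arrays and were not well above background.

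Of 5 Cyp2b genes, 3 were detected, all higher in aged cells. Cyp2b10 encodes the enzyme that phenobarbital induces most strongly in mouse liver, through the constitutive androstane receptor. Its brighter probe read 53.4 ± 6.1 in young cells and 172 ± 18 in aged cells, a difference of 2.06, or 4.18-fold. Its second probe, at 3.17 and 9.05, was near background on both arrays. Cyp2b9, a close relative whose expression in liver is female-biased, had 27.2 ± 4.0 and 86.2 ± 9.1, a difference of 2.04, or 4.11-fold. Cyp2b19, an epoxygenase of arachidonic acid first described in skin keratinocytes, was well above background only in aged cells. It read 11.98 ± 3.07 in young and 22.6 ± 3.6 in aged cells, which puts it at least 2.08-fold higher. Its other pair of probes read 3.098 to 3.216 on both arrays. Cyp2b13 and Cyp2b23 were not detected, at 3.15 to 3.62.

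Those genes belong to a P450 cluster of 13 genes that spans 1.36 Mb, at chr7:26587495-27943565 of mm9 by the probe positions. In this cluster 9 P450 genes were detected, and besides the Cyp2a and Cyp2b genes these were Cyp2s1, Cyp2g1, Cyp2f2 and Cyp2t4. Cyp2f2, which activates naphthalene in airway club cells, was bright in both arrays at 30351 ± 3035 and 34302 ± 3430, a difference of 0.55 that was -0.05 after quantile normalization. Cyp2s1, an epithelial P450 that can metabolise retinoic acid and eicosanoids, read 6308 ± 631 and 5331 ± 533, a difference of 0.13 that was -0.25 under loess. Cyp2t4 differed by 0.55 at signals of 22.8 and 25.7. Cyp2g1, known from olfactory mucosa, was detected only in young cells at 27.6 ± 4.1, against 4.05 in aged cells, which puts it at least 1.49-fold lower. Another 6 genes in the same interval were detected, and none of them is a P450. The 4 of these measured on both arrays differed by -0.05 to 0.69, so none reached 2-fold. Of the other pair, Nlrp9a was at least 2-fold lower by its limit and the limit of Nlrp4a was 0.94. Outside this cluster 32 P450 genes were measured on both arrays, with a median difference of 0.14, and 1 of them, Cyp2d12, was 2-fold higher.

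**Figure D3:**
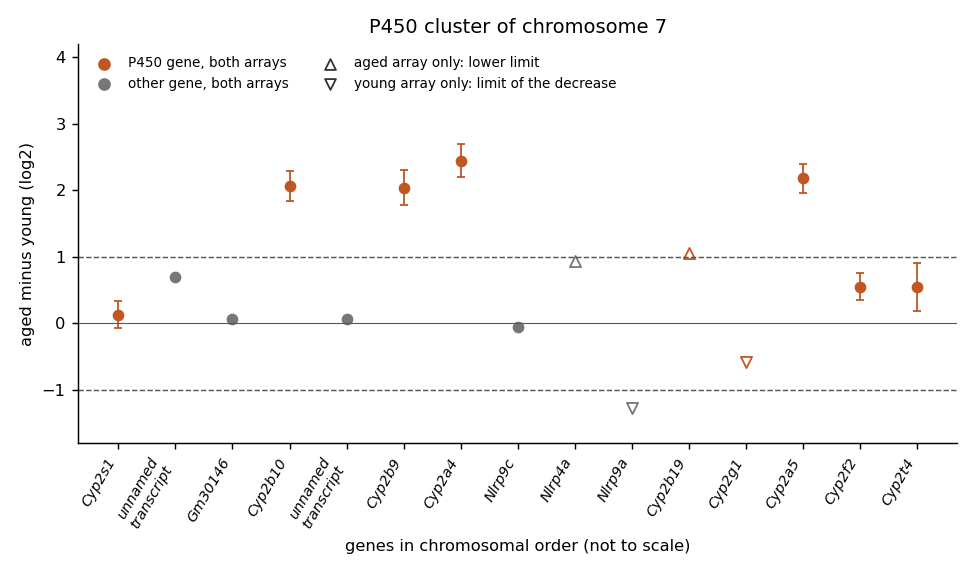
Log2 difference, aged minus young, of the 15 detected genes in the chromosome 7 interval, in chromosomal order and not to scale. Orange marks P450 genes with bars of 1 SD from the software's error, grey marks other genes, open triangles are limits and dashed lines mark 2-fold. Cyp2b10, Cyp2b9, Cyp2a4 and Cyp2a5 lie above 2 on the log2 scale, while Cyp2s1 lies at 0.13 and Nlrp9c at -0.05.

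The Cyp2d genes lie in a cluster of 10 on chromosome 15, and 8 were detected. Mouse Cyp2d enzymes oxidise many basic drugs, and Cyp2d9 is known as a male-specific steroid hydroxylase of liver. All 6 measured on both arrays differed by more than 0, with a median of 0.65, although Cyp2d40 fell below 0 under some scalings, down to -0.18. Cyp2d12 read 33.1 ± 4.4 in young and 62.6 ± 6.9 in aged cells, a difference of 1.29, or 2.45-fold. Just inside 2-fold, Cyp2d22 differed by 0.95, from 53.6 ± 6.3 to 80.0 ± 8.6. Cyp2d11, Cyp2d26 and Cyp2d10 differed by 0.66, 0.65 and 0.53, and Cyp2d40 by 0.08. A second probe of Cyp2d26 gave -0.20. Cyp2d13 was detected on 1 array by each of its 2 probes, and these disagree: 1 probe read 14.8 and 22.3, with a limit of 1.95-fold higher, and the other 20.7 and 8.46, with a limit of 1.12-fold lower. The pseudogene Cyp2d37-ps was detected in young cells only, at 20.5 ± 4.1. Cyp2d9 and Cyp2d34 were not well above background.

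The Cyp2j genes encode enzymes that turn arachidonic acid into epoxides. All 4 that were measured on both arrays differed by less than 0, with a median of -0.36, although Cyp2j8 rose above 0 under median centring, to 0.07. Cyp2j9 was the lowest of all measured P450 genes, at 71.8 ± 8.1 in young and 36.4 ± 5.2 in aged cells, a difference of -0.61, short of 2-fold. Cyp2j13 differed by -0.49 on a probe that the files also list with Cyp2j12, and by 0.22 on another probe of its own. Cyp2j6 differed by -0.23 on its brighter probe, at 256 and 169, and by 1.09 on a dimmer one, at 22.6 and 37.2. No direction can be read for Cyp2j6 and Cyp2j13, since their probes disagree in sign.

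No other gene of families 1 to 3 passed 2-fold, as measured or by its limit. Cyp1a1, the standard target gene of the aryl hydrocarbon receptor, was detected in aged cells only, at 20.6 ± 3.6 against 2.87 ± 2.88, which puts it at least 1.90-fold higher, and past 2-fold (1.10 on the log2 scale) with median centring and quantile normalization. Among genes detected in aged cells only, 52.6% of all genes had a limit of 2-fold or more and 1 of 4 P450 genes did. Among genes detected in young cells only, the share was 24.9% for all genes and 0 of 5 for P450 genes. Cyp1a2 was not well above background, and neither was Cyp1b1, at 4.33 and 15.7. Cyp2u1, which hydroxylates long-chain fatty acids in tissues outside the liver, read 24152 ± 2415 and 20392 ± 2039 on 1 probe, a difference of 0.13 that was -0.43 after quantile normalization. The files list that probe with an Ensembl transcript only and with no RefSeq gene. The probe of the RefSeq transcript of Cyp2u1 was not well above background, at 9.45 and 10.4, and another probe differed by -0.07 at 57.9 and 42.5. Cyp2e1, which oxidises ethanol, differed by 0.18 and Cyp2w1 by 0.12, both at signals under 100. A second probe of each was not well above background, at 3.27 and 3.30 for Cyp2e1 and at 11.3 and 10.8 for Cyp2w1. Of 16 Cyp2c genes only Cyp2c38 and Cyp2c70 were detected, with differences of 0.21 and -0.42. Of 8 Cyp3a genes only Cyp3a11 was detected, at 41.0 and 36.7, by a probe listed with 4 genes. These are the subfamilies that carry most drug oxidation in mouse liver.

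Family 4 enzymes hydroxylate fatty acids at the end of the chain. Of its 22 names, 7 were measured on both arrays, with differences from -0.47 to 0.39. The lowest was Cyp4f18, which hydroxylates leukotrienes in white blood cells, at 516 ± 52 and 287 ± 29. A second probe of it differed by -0.39. That probe, at chr8:74512382-74512441 of mm9, overlaps the first, at chr8:74512381-74512440, almost fully and is not an independent reading. Another probe of Cyp4f18 was detected in young cells only and was at least 2.21-fold lower in aged cells. Cyp4b1 was also detected only in young cells, at 32.1 ± 4.4 against 15.0, which puts it at least 1.66-fold lower. Cyp4x1 differed by 0.39 on a probe listed with an Ensembl transcript only, while the probe of its RefSeq transcript was at background, at 2.93 and 2.94. Cyp4f13 differed by 0.14, Cyp4f17 by 0.13 and Cyp4f16 by 0.05. Of 7 Cyp4a genes 1, Cyp4a31, was detected, with a difference of -0.10.

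Steroid-making P450 genes were detected in part. Cyp17a1, the hydroxylase and lyase that leads from progestins to androgens, was bright at 9183 ± 918 in young and 10083 ± 1008 in aged cells, a difference of 0.51 that was -0.02 after quantile normalization. Cyp21a1, the steroid hydroxylase of the adrenal cortex, read 105 ± 11 on both arrays, a difference of 0.37. A second Cyp21a1 probe gave 0.41. Cyp11a1, the enzyme of the entry step from cholesterol, was not well above background at 5.41 and 4.99. The same held for Cyp11b1 and Cyp11b2, which make corticosterone and aldosterone, and for the aromatase gene Cyp19a1, at 2.90 to 6.31. Among 14 genes of steroid supply and conversion, 7 were detected and none passed 2-fold. The cholesterol carrier Star was among the 7 that were not. Srd5a1, a reductase that makes dihydrotestosterone, came closest at -0.97.

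Of 6 genes for oxysterols and bile acids, 4 were measured on both arrays, all under 2-fold. Cyp39a1, an oxysterol hydroxylase, read 654 ± 65 and 452 ± 45, a difference of -0.16. Cyp46a1, which clears cholesterol from brain, differed by 0.05 at 180 ± 18 and 144 ± 15. Cyp27a1, the mitochondrial sterol hydroxylase, differed by 0.17 at 57.2 ± 6.7 and 49.9 ± 6.1. Cyp7b1, which hydroxylates oxysterols, differed by 0.48 on 1 probe, at 30.5 ± 4.3 and 32.9 ± 4.4. Its other probe was detected in young cells only, at 30.9 against 4.46, so the probes disagree. Cyp8b1, the sterol hydroxylase that sets the cholic acid share of bile, was detected in young cells only, at 34.6 ± 4.7 against 3.16, which puts it at least 1.87-fold lower. Cyp7a1, the rate-limiting enzyme of bile acid synthesis in liver, was not well above background at 13.2 and 3.15.

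All 3 vitamin D genes were detected. Cyp2r1, the liver enzyme of the first activating step, read 1639 ± 164 and 1859 ± 186, a difference of 0.55. Cyp27b1, which makes the active hormone, was detected in young cells only, at 21.3 ± 3.8 against 11.3 ± 3.4, with a limit of 1.15-fold lower. Cyp24a1, which inactivates the hormone, was detected in aged cells only, at 14.8 ± 3.2 against 7.46 ± 2.93, with a limit of 1.36-fold higher. The vitamin D receptor gene Vdr read 76.5 and 39.9, a difference of -0.57.

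Cyp26 enzymes degrade retinoic acid. Cyp26b1 read 170 ± 17 and 161 ± 16, a difference of 0.29, while Cyp26a1 and Cyp26c1 were not well above background at 3.53 to 3.77. Among 11 genes of retinoid supply on the array, Aldh1a2, which makes retinoic acid, read 240 and 19.2, a difference of -3.27. Crabp1, a retinoic acid binding protein, was detected in young cells only, at 118 against 14.2, and was at least 6.37-fold lower. The other 7 detected genes of this list lay within 2-fold. Cyp20a1, an orphan enzyme, differed by -0.04.

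Enzymes that feed electrons to P450s were detected throughout. Por, the reductase of most P450s of the endoplasmic reticulum, read 2236 and 2314, a difference of 0.42. Cyb5a, the cytochrome b5 that assists several of them, read 8705 and 10374, a difference of 0.63. Of the mitochondrial pair, Fdx1 differed by -0.09 and Fdxr by 0.10. Among the 12 genes of this list, the single one past 2-fold was Cyb5r2, detected in aged cells only at 24.0 against 2.97 and at least 2.21-fold higher.

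Of 26 regulators of P450 genes, 21 were detected and none passed 2-fold, with a median of -0.20. Nr1i3, the constitutive androstane receptor that drives Cyp2b10 in liver, read 56.4 and 44.3, a difference of 0.02. Nr1i2, the pregnane X receptor, and Hnf4a were not well above background. Ahr, the aryl hydrocarbon receptor, read 332 and 173, a difference of -0.56. Among 16 other oxidases and hydrolases, Aox4 was detected in young cells only and was at least 3.99-fold lower. Of 19 conjugating enzymes on the array, 8 were detected, and Sult2b1 was at least 2.13-fold higher by its limit.

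Some P450 genes carry names outside the rule, and 3 of them were measured. Cyp51, the demethylase of cholesterol synthesis, read 256 and 128, a difference of -0.63. Ptgis, the prostacyclin synthase, differed by -0.07. Tbxas1, the thromboxane synthase known from platelets and macrophages, read 202 and 27.7, a difference of -2.49, or 5.64-fold lower. Macrophage and dendritic cell markers moved with it: 7 of 10 were 2-fold lower on both arrays and 1 more by its limit. Their summed level relative to the 75th percentile was 153 in young and 57.4 in aged cells. A summed level is weighted to the brightest probes of its list, in this list Lyz2 at 23810 and 4884. The part of macrophages and dendritic cells in the values of Tbxas1 and Cyp4f18 was not tested.

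Cell type markers were set beside the rising genes. Epithelial markers were detected 9 of 9, with a summed level of 521 and 580 and a median difference of 0.13, and none passed 2-fold. The brightest probes in that sum were those of Krt18, at 84625 and 75885, and Krt8, at 36987 and 29215. The 9 acinar markers summed to 8685 and 11420.1, with Smgc 2-fold lower and none higher, and the 9 granular duct markers to 2365 and 2244. No marker of fibroblasts, endothelium or macrophages was 2-fold higher, and 3 of 6 fibroblast markers were 2-fold lower, with 1 more by its limit. Because the leading Cyp2a and Cyp2b genes are best known from liver, hepatocyte markers were examined too: their summed level was 3.07 and 2.28, and 4 of 6 were detected. Of these, Serpina1a differed by -0.37 at 583 and 349, Apoc3 by 0.19 and Tat by 0.03, and Fgb was at least 5.12-fold lower. Alb and Apoa1, the markers of albumin and apolipoprotein secretion, stayed at background, at 2.97 to 4.89. Of the remaining lists, 2 of 4 general leukocyte markers, 2 of 6 B and plasma cell markers and 2 of 6 basal and myoepithelial markers were 2-fold lower on both arrays, and no marker of T cells, endothelium or adipocytes was, although the T cell gene Cd3g was at least 2.06-fold lower by its limit.

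The choice of scaling moved the differences. The median over all genes shifted by 0.17 when arrays were centred on their median, by -0.11 with the 75th percentile of probes detected on both arrays, by -0.14 under loess and by -0.26 when the spike-in controls were set level. With median centring, 464 of all genes were 2-fold higher and 417 lower, against 284 and 571 as reported and 150 and 929 with the spike-in controls. The median of the P450 genes stayed 0.07 to 0.18 above the median of all genes under all 7 scalings. Cyp2a4 ranged from 1.38 to 2.62, Cyp2a5 from 1.59 to 2.35, Cyp2b10 from 1.35 to 2.24 and Cyp2b9 from 1.10 to 2.21, with each lowest value after normexp background correction. Cyp2d12 ranged from 0.68 to 1.47 and fell below 2-fold after normexp. The limit of Cyp2b19 ranged from 0.51 to 1.23 and fell below 2-fold in 4 of the 7.

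**Figure D4:**
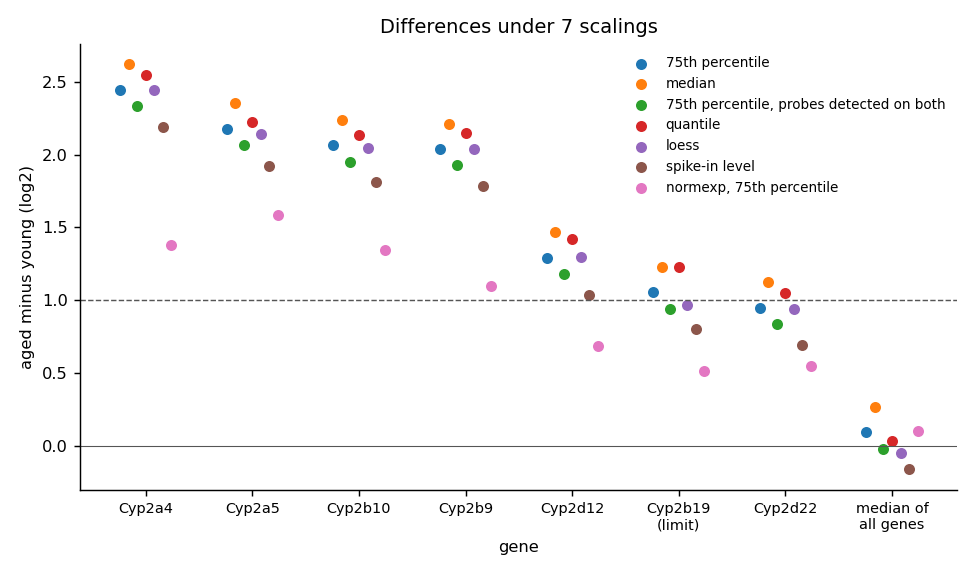
Log2 difference, aged minus young, of 7 P450 genes and of the median of all genes under 7 scalings of the same 2 arrays, with 2-fold dashed. Cyp2a4, Cyp2a5, Cyp2b10 and Cyp2b9 stay above the line in all 7, Cyp2d12 in 6 and the limit of Cyp2b19 in 3, while Cyp2d22 is above it in 2.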

How the data were processed

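RNA of EpCAM-positive submandibular gland cells was hybridised to 1 Cy3 array per age. The authors deposited scanner output with processed signal intensity, background-subtracted by Agilent Feature Extraction 12.0.3.1, and a table of intensity divided by a constant per array, used here as an alternative. The study's methods name per-chip scaling to the 75th percentile and a 2-fold threshold. Here log2 intensity minus log2 of each array's 75th percentile over 59305 non-control spots (256 young, 198 aged) was taken. Outlier spots were dropped, spots of a probe averaged, and the brightest detected probe kept per gene. Several probes were present for 27 P450 genes, and for 10 of these more than 1 probe was detected. Detection was the software's well-above-background call, met by 55.4% and 50.8% of spots; the number of arrays limits the precision. A gene detected on 1 array got a limit, its level there against the higher of its own dim value and the lowest detected signal (14.1 young, 14.3 aged). Of the 135 P450 spots, 53 and 54 held the software's substitute value for signals near background, and 0 were outliers or saturated. Accessions of 97 members matched RefSeq, and 1 was renamed (Cyp2c44, not detected).

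Named were all P450 genes past 2-fold, the detected steroid, sterol, vitamin D and retinoid members, the nearest to 2-fold, and partners past 2-fold; other members named were chosen after their values were seen. Members and lists were chosen with earlier results of these data known. Promoters were aligned with Biopython 1.88 (match 1, mismatch -1, gap opening -2, extension -0.5). Alternatives used R 4.3.3 and limma 3.58.1. The scripts were tested on simulated data.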

Additional observations from a re-analysis of the deposited data

How the results depend on the processing

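With 1 array per age neither a replicate nor the slide could be left out or used as a block, and no p-value exists. No paired analysis was possible because each age has a single array. The count of 5 P450 genes 2-fold higher was 4 after normexp, 6 with median centring or quantile normalization, 17 without a filter on dim probes and 3 without probes listed with several genes, an alternative chosen after seeing the data. The count of 0 lower was 5 without the filter and 1 (Cyp4f18) with the mean over probes. By limit, the 1 gene higher became 3 with median centring or quantile normalization and 0 with the 75th percentile of probes detected on both arrays, loess, spike-in controls, normexp or a minimum signal of 50. The 0 lower by limit became 1 (Cyp8b1) with that 75th percentile, loess or spike-in controls. The median difference of 0.18 became -0.080 with the spike-in controls. Detection by the software's weaker call of positive and significant signal gave 73 genes in place of 48. No called gene changed direction under any alternative. The causes were not tested.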
